A study of Mus musculus with 4 samples.

Results

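The Sp100, Sp110 and Sp140 gene cluster on mouse chromosome 1 was examined as a group of regions that were called as H3K79me2 peaks in mouse embryonic stem cells. The regions were chosen by measured peaks: every peak of the control list or the methotrexate (MTX) list that lay wholly between 84500001 and 86000000 on chromosome 1 was taken, a window of 1.5 Mb. Of the 271 control peaks 87 met this rule, a share of 32.1% with a 95% Wilson interval of 26.8 to 37.9. Of the 161 MTX peaks 53 met it, a share of 32.9% (26.1 to 40.5). Because called peaks chose the window, the number of peaks in it and their heights are descriptions and were not tested. The 3 genes that give the cluster its name, Sp100, Sp110 and Sp140, were each in the gene table used to place the peaks.

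The cells were Sv/129 embryonic stem cells grown in normal folate medium. The control culture was kept in that medium (1 week by the sample title, at least 2 passages by the protocol), and the MTX culture was then given 1 µM methotrexate, for 12 h by the sample title and 24 h by the protocol. Each condition had 1 ChIP library made with a rabbit monoclonal antibody against dimethylated lysine 79 of histone H3 and 1 input library made without it, so no difference between the conditions has a replicate behind it and none was tested. The titles call that library input, while the protocol speaks of normal IgG for it, so the labels do not settle which material the input background values come from. After duplicates were removed, the control libraries held 14763032 ChIP and 15606892 input tags, and the MTX libraries held 15648281 ChIP and 14507662 input tags.

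Sp100, Sp110 and Sp140 encode related proteins of the cell nucleus that read chromatin, and their genes lie side by side in mammals. Sp100 is a constant component of the PML nuclear body, all 3 genes are induced by interferons, and mouse Sp110 and Sp140 are known for their part in resistance to bacterial infection. H3K79me2 is placed by the enzyme DOT1L on the bodies of transcribed genes, mostly towards their 5′ ends, and methotrexate blocks dihydrofolate reductase, an enzyme that cells need to make the folates used in methyl group transfer.

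The mouse cluster also holds genes with near copies of the start sites of Sp140 and Sp100. These start sites are shown first because they let a reader see how alike the duplicated genes are at their starts. The sequences are RefSeq windows on GRCm38.p6, each running from 250 bases before to 50 bases after a gene's start and printed 5′ to 3′ on the gene's strand. All 3 named genes matched the table of windows by symbol, with 5 windows, and 22 windows of 20 genes lay in the cluster's window. The Sp140 window (chr1:85600453-85600752, + strand) and those of A530032D15Rik (chr1:85109804-85110103, − strand) and C130026I21Rik (chr1:85270517-85270816, − strand) follow, with capitals for the bases at which the copies differ, either by a substitution or by 12 bases present in A530032D15Rik and absent from the aligned stretch of C130026I21Rik. The Sp140 window opens with the end of this 12-base stretch, printed there in lower case. Its match to C130026I21Rik starts after that, at base 8.
Sp140: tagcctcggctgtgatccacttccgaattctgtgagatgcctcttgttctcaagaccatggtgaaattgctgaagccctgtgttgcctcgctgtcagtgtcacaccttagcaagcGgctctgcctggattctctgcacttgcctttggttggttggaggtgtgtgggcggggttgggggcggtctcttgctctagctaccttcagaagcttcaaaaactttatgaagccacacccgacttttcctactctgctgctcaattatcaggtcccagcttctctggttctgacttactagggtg
A530032D15Rik: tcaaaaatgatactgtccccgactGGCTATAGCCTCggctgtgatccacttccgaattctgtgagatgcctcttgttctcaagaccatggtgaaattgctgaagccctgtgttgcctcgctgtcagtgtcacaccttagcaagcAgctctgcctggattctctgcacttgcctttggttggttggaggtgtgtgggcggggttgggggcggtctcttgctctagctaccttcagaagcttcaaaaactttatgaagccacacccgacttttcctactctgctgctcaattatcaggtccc
C130026I21Rik: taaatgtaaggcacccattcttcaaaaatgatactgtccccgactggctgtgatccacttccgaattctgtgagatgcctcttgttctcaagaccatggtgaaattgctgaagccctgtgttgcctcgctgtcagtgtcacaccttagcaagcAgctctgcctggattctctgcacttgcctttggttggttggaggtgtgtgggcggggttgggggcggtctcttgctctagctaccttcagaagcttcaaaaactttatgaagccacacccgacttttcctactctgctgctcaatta

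Sp140 matched A530032D15Rik at 270 of 271 aligned bases (99.6%) and C130026I21Rik at 254 of 255 (99.6%). The same base differed in both copies, G116A, counted from 1 at the 5′ end of the Sp140 window, with the base of Sp140 given before the number. A530032D15Rik and C130026I21Rik were identical at 279 of 291 aligned columns (95.9%), with 0 mismatches and 12 gap bases. In a BLAST search of all 32851 windows at an E-value of up to 1e-10, each of these 3 windows matched only the other two. The 3 start sites therefore form 1 group of near copies within the cluster.

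The Sp100 start site had 1 near copy of its own, Gm7609. The Sp100 window (chr1:85649764-85650063, + strand) and the Gm7609 window (chr1:85199361-85199660, + strand) are shown to set this pair beside the Sp140 group, with capitals for the bases that differ. A further Sp100 window in the table overlaps the one shown.
Sp100: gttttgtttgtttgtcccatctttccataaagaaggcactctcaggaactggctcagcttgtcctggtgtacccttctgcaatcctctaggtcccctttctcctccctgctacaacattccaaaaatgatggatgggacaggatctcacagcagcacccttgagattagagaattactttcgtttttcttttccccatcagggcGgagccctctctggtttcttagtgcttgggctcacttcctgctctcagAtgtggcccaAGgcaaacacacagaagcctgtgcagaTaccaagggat
Gm7609: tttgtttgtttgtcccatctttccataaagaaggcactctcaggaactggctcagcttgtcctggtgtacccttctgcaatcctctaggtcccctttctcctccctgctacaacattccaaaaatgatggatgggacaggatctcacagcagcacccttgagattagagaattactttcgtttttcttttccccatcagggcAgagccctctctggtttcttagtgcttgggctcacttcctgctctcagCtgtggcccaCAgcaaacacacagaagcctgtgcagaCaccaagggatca

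They matched at 293 of 298 aligned bases (98.3%). The 5 substitutions from Sp100 to Gm7609, counted from 1 at the 5′ end of the Sp100 window, were G205A, A253C, A263C, G264A and T290C.

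Sp110 has windows at separate start sites, called here the upstream start (chr1:85603842-85604141, − strand) and the downstream start (chr1:85598761-85599060, − strand). They are shown because listed peaks flank both and because neither matched another gene's start site window in the cluster by BLAST. Capitals mark the 13-base word repeated most often in the upstream window, on either strand, and the motif TTTCNNNTTTC in the downstream window.
Sp110 upstream start: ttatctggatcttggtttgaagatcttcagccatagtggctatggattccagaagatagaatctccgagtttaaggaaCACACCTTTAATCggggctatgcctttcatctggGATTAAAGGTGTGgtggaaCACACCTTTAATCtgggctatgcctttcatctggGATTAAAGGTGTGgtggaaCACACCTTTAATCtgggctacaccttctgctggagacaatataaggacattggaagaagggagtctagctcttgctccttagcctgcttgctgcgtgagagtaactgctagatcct
Sp110 downstream start: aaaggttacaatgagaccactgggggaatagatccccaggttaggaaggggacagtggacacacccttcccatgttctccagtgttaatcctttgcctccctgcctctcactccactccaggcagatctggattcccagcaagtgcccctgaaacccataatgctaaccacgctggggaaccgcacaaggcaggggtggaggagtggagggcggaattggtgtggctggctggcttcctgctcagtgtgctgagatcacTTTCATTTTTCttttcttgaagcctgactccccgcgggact

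The word CACACCTTTAATC, or its reverse complement, occurred 5 times in the upstream window. It was found in 50 of the 32851 windows (0.152%), and the upstream window matched 48 other windows of 45 genes in the BLAST search, 0 of them in the cluster. The downstream window matched 0 other windows. Among start site windows, those of Sp110 thus stood apart from those of Sp140 and Sp100, whose matches all lay inside the cluster. Sequence outside the windows was not searched for copies.

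Because the 3 genes respond to interferons, the windows were also searched on both strands for the core of the interferon-stimulated response element, TTTCNNTTTC, for TTTCNNNTTTC, which has 1 more base between its repeats, and for TTCNNNGAA, the pattern of a gamma-activated site. These 3 motifs share the letters TTC and can overlap each other. TTTCNNTTTC was held by 1131 of the 32851 windows (3.44%) and by 0 of the 7 windows shown. TTTCNNNTTTC was held by 903 windows (2.75%), among them Sp100 from base 178, Gm7609 from base 176 and the Sp110 downstream start from base 260. TTCNNNGAA was held by 2726 windows (8.30%) and by 0 of those shown. GGGCGGG, the GC box, which overlaps none of the other motifs in these windows, was held by 8400 windows (25.6%), among them Sp140 from base 165, A530032D15Rik from base 194 and C130026I21Rik from base 203. Near copies thus held the same motifs. A match describes letters in a window, and no match says only that the letters are not in it.

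Peaks of the cluster stood far from any other listed peak of chromosome 1. Pileup is the number of ChIP fragments, in tags, that overlap a peak's summit. It was 45 tags at the first control peak inside the window, from 84962863 to 84963120, and 18 tags at the last, from 85651092 to 85651430. The nearest control peaks outside the window lay from 8191867 to 8192060, 76.8 Mb before, and from 115064299 to 115064666, 29.4 Mb after, with 12 tags each. In the MTX list, the first and last peaks inside lay from 84962851 to 84963085 with 31.5 tags and from 85636194 to 85636391 with 32.5 tags. No MTX peak lay before the window on chromosome 1, and the nearest after it, from 103178490 to 103178685 with 13.9 tags, was 17.5 Mb away. The edges of the 1.5 Mb window therefore divided no run of peaks.

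Inside the window the peaks of both lists fell into 2 stretches when peaks at distances of up to 50 kb were joined. The stretch from 84962851 to 85347016 (384 kb) held 51 control peaks and 28 MTX peaks, and A530032D15Rik, C130026I21Rik and Gm7609 lie in it. After a gap of 105 kb with no peak in either list, the stretch from 85451819 to 85651430 (200 kb) held 36 control peaks and 25 MTX peaks and includes Sp110 and Sp140, and it ends in Sp100. The MTX to control ratio of peaks was 0.549 in the stretch with the copies and 0.694 in the stretch with the named genes, and the difference was not tested. Over the whole cluster the ratio was 0.609 (95% Wilson interval 0.434 to 0.856), against 0.587 (0.463 to 0.744) for the 184 control and 108 MTX peaks elsewhere. The intervals cover counting error only and take peaks as independent. Among peaks with a fold enrichment of at least 5 the direction was the opposite, with 3 of 87 control peaks and 13 of 53 MTX peaks in the cluster, a ratio of 4.33, where 34.3% of the whole control list and 44.7% of the whole MTX list passed. Elsewhere 90 of 184 control peaks and 59 of 108 MTX peaks passed, a ratio of 0.656, so the direction did not change there.

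In steps of 50 kb from the first peak, the densest step in the control list was the one from 300 to 350 kb, with 17 control peaks and 6 MTX peaks. The step from 600 to 650 kb, which includes the start sites of Sp110 and Sp140, had 16 control peaks and 10 MTX peaks, the most of any step in the MTX list. The step from 400 to 450 kb had none. Control peaks were more numerous in 9 of the 13 steps with a peak, and the other 4 held 1 to 5 control peaks and 2 to 6 MTX peaks each.

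**Figure D1:**
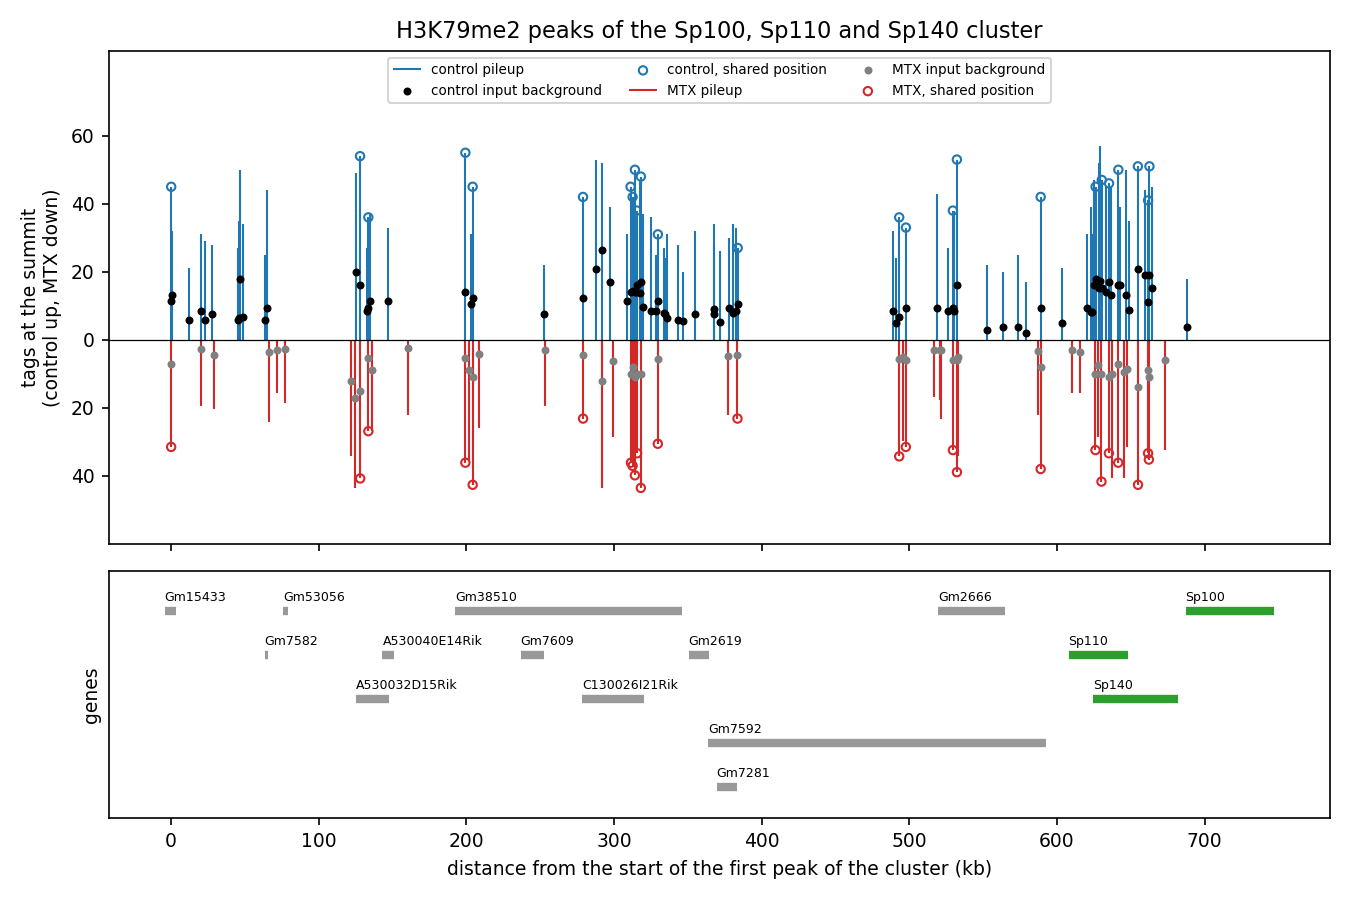
Pileup in tags at each of the 87 control summits (up) and 53 MTX summits (down) against distance in kb from the start of the first peak, with the local input background as filled dots and shared positions as open circles; bars below are the genes of the RefSeq table that hold a summit. Control peaks are densest from 300 to 350 kb, and peaks of both lists crowd at Sp110 and Sp140 from 600 to 650 kb, and 1 control peak of 18 tags lies at Sp100.

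Peaks of the cluster were high in tags, and the input beneath them was high as well. The control pileup ranged from 17 to 57 tags with a median of 36. The deposited MTX pileup ranged from 15.8 to 43.6 tags with a median of 32.5. The MTX values had been scaled by 0.927 to the smaller library of their pair. Undone, they gave whole fragments (within 0.02) at 53 of 53 peaks, from 17 to 47 with a median of 35. On the unscaled count the MTX median was therefore 1 fragment below the control median. For peaks elsewhere, the control median was 14 tags and the MTX median 18.5 tags.

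The local input background is the number of input tags that the peak caller set against the pileup, after scaling, and it was recovered from pileup and fold enrichment, since the deposited fold enrichment is the pileup plus 1 over the background plus 1. In the control list it ranged from 2.08 to 26.5 tags with a median of 9.46, which is 9.19 times the genome average of 1.03 tags. In the MTX list it ranged from 2.53 to 17.0 tags with a median of 6.0, or 5.87 times the genome average of 1.02 tags. The lowest background in the cluster was thus above the genome average in each list, by 2.03 times in the control and 2.48 times in MTX. Elsewhere the control median was 1.89 tags and the MTX median 2.19 tags.

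A background of at least 5 tags lay under 81 of the 87 control peaks (93.1%, 95% Wilson interval 85.8 to 96.8), where 42.1% of the whole control list passed that level. It lay under 35 of the 53 MTX peaks (66.0%, 52.6 to 77.3), where 38.5% of the whole MTX list did. The deposited values carry rounding, and with those within 0.002 of 5 tags counted, a choice made after the data were seen, the MTX count was 36 of 53 (67.9%) and the control count was again 81. Outside the cluster the shares were 33 of 184 control peaks (17.9%) and 27 of 108 MTX peaks (25.0%). Those outside that overlap a peak of the other list passed more often, at 15 of 17 control (88.2%) and 8 of 18 MTX peaks (44.4%). Such overlapping peaks inside the cluster passed at 25 of 25 in the control and 23 of 25 in MTX (92.0%). The input libraries took no part in choosing the window by themselves, but every listed peak was called against them, so these shares are not independent of the choice. The part of the input background in the number of listed peaks was not tested.

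**Figure D2:**
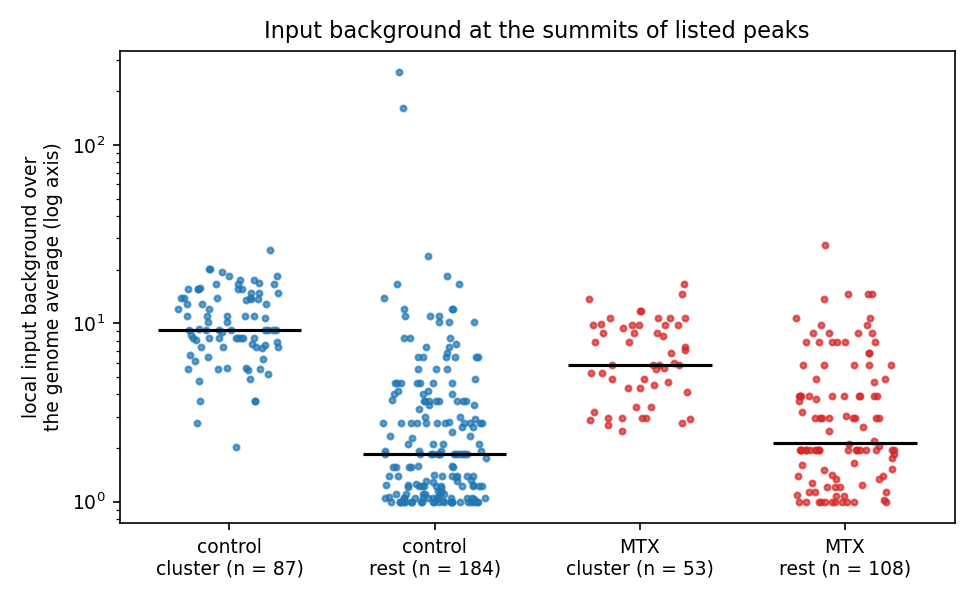
Local input background at each summit over the genome average of its list, on a log axis, for the cluster and for the rest of each list; each point is a peak and bars are medians. Control medians are 9.19 times the average in the cluster and 1.84 times elsewhere, MTX medians are 5.87 and 2.14 times, and the groups overlap.

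The peak caller takes as local background the highest of the input over the fragment length, over 1 kb, over 10 kb and over the genome, and with the pileup taken as whole fragments each value of the cluster could be traced to 1 of the first 3 as a whole number of input tags (within 0.002 tags). In the cluster, 60 control backgrounds came from the fragment length, 19 from 1 kb and 8 from 10 kb, and 0 from the genome average. The MTX backgrounds came from the fragment length at 27 peaks, from 1 kb at 17 and from 10 kb at 9. Elsewhere, the genome average itself was used at 24 of 184 control peaks and 11 of 108 MTX peaks. In the cluster the input was thus above the genome average over at least 1 of these 3 spans at each of the 87 control and 53 MTX peaks. The fragment-length backgrounds rested on few input tags, 3 to 28 with a median of 12 in the control and 3 to 17 with a median of 9 in MTX, which limits the precision of each fold enrichment.

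Fold enrichment over this background was modest. It ranged from 1.93 to 5.99 with a median of 3.25 in the control list, and from 2.48 to 6.58 with a median of 4.19 in the MTX list. Elsewhere the medians were 4.96 and 5.26. Peaks of the cluster therefore had a higher median pileup and a lower median fold than the rest of their list. The rest is mixed, and its peaks that overlap a peak of the other list had medians nearer to those of the cluster, at 35 tags over 10.4 with a fold of 3.54 for 17 control peaks and 33.4 tags over 4.0 with a fold of 4.65 for 18 MTX peaks. Between conditions, the median fold was higher in MTX while the median pileup was lower, also as fragments before scaling.

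The highest pileups and the highest folds belonged to different peaks. In the control list the highest pileup was 57 tags over a background of 17.3, in an intron of Sp110 from 85592107 to 85592520. Next came 55 tags from 85162113 to 85162592, 54 tags from 85090335 to 85091075, and 53 tags both from 85250603 to 85251217 and from 85494930 to 85495222. Their backgrounds lay between 14.2 and 20.8 tags and their folds between 2.48 and 3.69. The highest control folds were 5.99 from 85515364 to 85515623, 5.84 from 85541468 to 85541689 and 5.45 from 85536657 to 85536863, with pileups of 22, 17 and 25 tags over backgrounds of 2.84, 2.08 and 3.77. All lie together in the stretch with the named genes, and the annotation the study gave its peaks puts them in introns of ENSMUSG00000089714 and ENSMUSG00000090186. The highest control folds thus lay over low input and at low pileup.

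In the MTX list the highest pileup, 43.6 tags, was reached at 3 peaks, from 85087380 to 85088027, from 85254698 to 85254938 and from 85280904 to 85281181. Their backgrounds were 17.0, 12.0 and 10.0 tags and their folds 2.48, 3.43 and 4.05. Next came 42.7 tags, both from 85167038 to 85167229 and from 85617375 to 85617805. The peak from 85087380 had the lowest fold of the 53 MTX peaks. The highest MTX folds were 6.58 from 85123156 to 85123383, 6.14 from 85484317 to 85484546 and 5.88 from 85495976 to 85496194, with pileups of 22.3, 23.2 and 34.3 tags over backgrounds of 2.53, 2.94 and 5.0. No peak was among both the 5 highest pileups and the 3 highest folds of its list in the cluster.

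Of the 87 control peaks, 25 were overlapped by at least 1 bp by an MTX peak (28.7%), where 15.5% of the whole control list was. Seen from the MTX list, a control peak overlapped 25 of 53 peaks (47.2%), where 26.7% of the whole MTX list was. Each shared position paired 1 control peak with 1 MTX peak. The overlap was 95 to 483 bp with a median of 241 bp, and the summits lay 0 to 389 bp apart with a median of 41 bp. The positions were spread over both stretches, 13 in the one with the copies and 12 in the one with the named genes.

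Shared positions had higher medians than the other peaks of each list, with overlapping ranges. Control peaks at shared positions had a median pileup of 45 tags and a median background of 14.0 tags, against 32 and 8.51 tags at the 62 control peaks with no overlap. MTX peaks at shared positions had medians of 35.2 and 8.06 tags, against 25.0 and 4.61 tags at the 28 MTX peaks with no overlap. The control pileup ranged from 27 to 55 tags at shared peaks and from 17 to 57 at the others, and the MTX pileup from 23.2 to 43.6 and from 15.8 to 43.6. Medians of both ChIP and input were therefore higher where the lists overlapped, while the highest control pileup was not shared. The same order held outside the cluster, where shared control peaks had medians of 35 tags over 10.4 against 13 over 1.64 at the others, and shared MTX peaks 33.4 over 4.0 against 16.7 over 2.0. Inside the cluster median folds were close, at 3.16 shared and 3.37 not shared in the control list and 4.07 and 4.19 in the MTX list.

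At all 25 shared positions the deposited pileup was lower in MTX, where 93.0% of the 43 overlapping pairs of the whole series were lower. The MTX to control ratio of pileup ranged from 0.552 to 0.987 with a median of 0.814. On fragments before scaling, a comparison added after the data were seen, the MTX count was lower at 21 of the 25 positions, where 81.4% of the 43 pairs were lower, with ratios from 0.595 to 1.06 and a median of 0.878. Per 1000000 tags of the library they were scaled to, 24 of 25 were lower with a median of 0.828, where 90.7% of the 43 pairs were. The shares in the cluster were thus near those over all pairs on each scale. The direction at a single position therefore depended on the scaling at up to 4 positions.

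The input moved the same way. The local input background was lower in MTX at all 25 shared positions, where 97.7% of the 43 pairs of the whole series were lower, with ratios from 0.362 to 0.933 and a median of 0.622. Because the background ratio was in most cases below the pileup ratio, fold enrichment was higher in MTX at 23 of the 25 positions, with an MTX to control ratio from 0.811 to 1.83 and a median of 1.25. At shared positions, pileup and fold enrichment thus gave opposite directions, and the part of the input in either was not tested. Of the 18 overlapping pairs elsewhere, pileup was lower in MTX at 15, background at 17, and fold was higher at 13.

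Summed over the 25 positions, whose summits lay at least 933 bp apart in the control list and 538 bp apart in the MTX list, the control held 1091 fragments (95% exact Poisson interval 1027 to 1158) and MTX held 944 (885 to 1006). Per 1000000 ChIP tags of each library this was 73.9 (69.6 to 78.4) in the control and 60.3 (56.5 to 64.3) in MTX. The difference between the conditions was not tested, and the intervals cover counting error only. They hold no variation between cultures, and the sums are of summits that each list chose for itself.

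**Figure D3:**
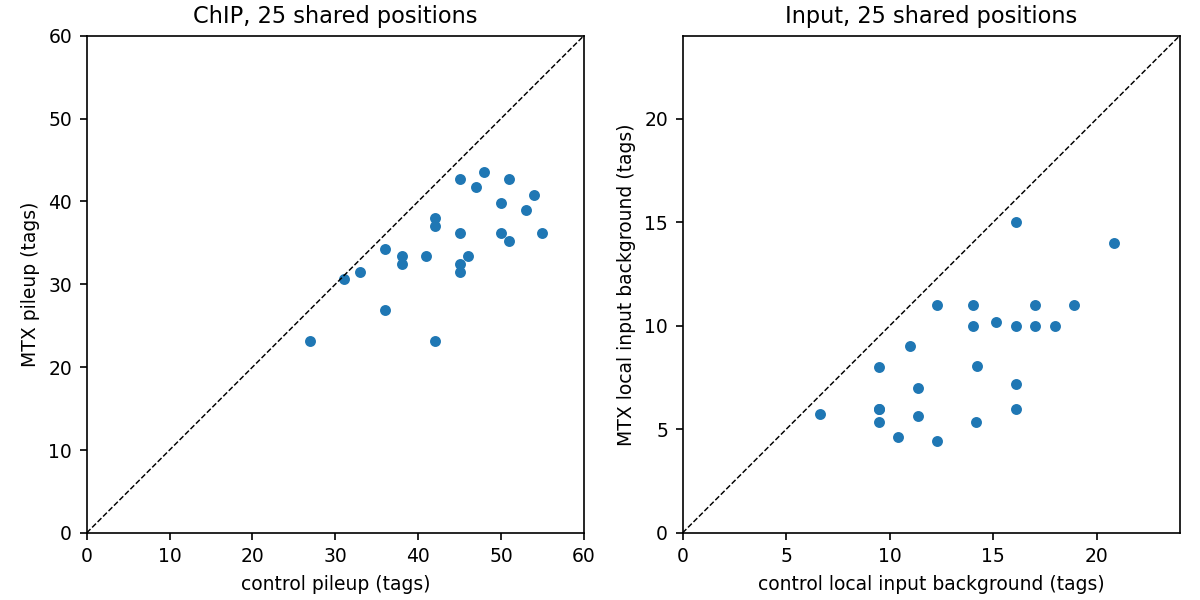
MTX against control at the 25 shared positions, as deposited pileup in tags (left) and local input background in tags (right), with a dashed line of equality. Each point is 1 position, and all points lie below the line in both panels, with median ratios of 0.814 and 0.622; on fragments before scaling 21 of 25 pileups are lower in MTX.

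Of the shared positions, 10 had a pileup among the 10 highest of either list. The position with the lowest pileup ratio among these lay from 85162113 to 85162592 in the control list, where the pileup was 55 tags in the control and 36.2 in MTX, and the background 14.2 and 5.38 tags. No gene is linked to it in the annotation. A position near 85494930 had 53 and 38.9 tags over backgrounds of 16.1 and 6.0, and one near 85604248, before the upstream start of Sp110, had 50 and 36.2 tags over 16.1 and 7.20. At these 3 positions the background differed more than the pileup, so the fold was higher in MTX, at 5.83 against 3.69, 5.71 against 3.16 and 4.53 against 2.99.

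The position near 85090335 behaved otherwise. Its pileup was 54 tags in the control and 40.8 in MTX, its background was close, at 16.1 and 15 tags, and its fold was 3.22 and 2.61. The position near 85624420 in Sp140, with 41 and 33.4 tags and folds of 3.51 and 3.44, was the other of the 2 at which fold was lower in MTX. The remaining positions of high pileup lay between these patterns. They were near 85167044 with 45 and 42.7 tags, near 85276874 with 50 and 39.9 tags, near 85280925 with 48 and 43.6 tags, and near 85593039 with 47 and 41.7 tags. Near 85617565 there were 51 and 42.7 tags, and near 85624895 there were 51 and 35.2 tags. Only the position near 85167044 had more fragments in MTX before scaling, 46 against 45, among these 10.

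Peaks of 1 list only were often close to a peak of the other list. The distance from a control peak with no overlap to the nearest MTX peak ranged from 10 to 23700 bp with a median of 2068 bp, and 21 of the 62 lay within 1 kb. For the 28 MTX peaks with no overlap it ranged from 10 to 13111 bp with a median of 1280 bp, and 11 lay within 1 kb. The overlap of at least 1 bp therefore separated some peaks that lie side by side. In order along the chromosome, the longest run of peaks from the control list alone was 9, from 85296506 to 85334568, with pileups of 20 to 34 tags and a median background of 7.49. The longest run from the MTX list alone was 5, from 85028928 to 85088027, with pileups of 15.8 to 43.6 tags and a median background of 3.46. The longest run of shared peaks held 6 peaks in 3.23 kb, from 85273986 to 85277219, inside C130026I21Rik by the RefSeq table.

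Genes and classes of overlap were taken from the annotation the study gave its peaks. By this annotation 55 of the 87 control peaks were linked to a gene (63.2%), where 40.2% of the whole control list was. For MTX it was 27 of the 53 peaks (50.9%), where 48.4% of the whole MTX list was linked. In each list 5 of the 25 shared peaks were linked, against 50 of the 62 other control peaks and 22 of the 28 other MTX peaks. Outside the cluster 1 of 17 shared control peaks was linked against 53 of 167 others, and 2 of 18 shared MTX peaks against 49 of 90 others. By the RefSeq table, in contrast, all 25 shared summits of each list lay in a gene, against 52 of the 62 other control summits and 21 of the 28 other MTX summits. In each list 20 shared peaks thus lay in a RefSeq gene and had no link in the annotation, 1 of them the control peak from 85624420 to 85624670 in Sp140, so counts of linked peaks by gene leave such peaks out. Of the linked control peaks, 6 overlapped an exon, 50 an intron and 8 a promoter, and of the linked MTX peaks 5, 24 and 4, where a peak counts in each class given to it. The intron class was thus given to 90.9% of the linked control peaks and 88.9% of the linked MTX peaks, where 84.4% and 75.6% of all linked peaks of the lists had it. The promoter class was given to 14.5% and 14.8% in the same order, where 22.0% and 34.6% of all linked peaks had it. For the exon class the shares were 10.9% and 18.5%, where 13.8% and 15.4% of all linked peaks had it. In the cluster 22 genes were linked, 19 with a control peak and 15 with an MTX peak, of which 12 had both.

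Sp110 encodes a nuclear body protein and had 8 control peaks and 3 MTX peaks in this annotation. It is listed as ENSMUSG00000070034, matched here to the symbol by the position of its peaks inside the gene. The control peaks overlapped exons at 2 and introns at 6, with pileups from 31 to 57 tags and a median of 46 over a median background of 14.7 tags. The MTX peaks were all intronic, with 15.8 tags from 85578347 to 85578729, 28.7 tags from 85590284 to 85590475 and 41.7 tags from 85592840 to 85593139. The last of them is the only shared position that the annotation links to Sp110. In pileup the groups of peaks overlap, and the lowest is the MTX peak of 15.8 tags. The median fold was 3.12 in the control and 3.76 in MTX.

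Sp140 encodes a further reader of chromatin, with its start site between those of Sp110 and on the other strand. It is listed as ENSMUSG00000070031, matched in the same way, and had 6 control peaks and 5 MTX peaks. Those of the control were intronic, with pileups from 35 to 51 tags and a median of 44.5 over a median background of 15.7 tags. The MTX peaks had pileups from 31.5 to 40.8 tags with a median of 35.2 over a median background of 9.60 tags. In pileup the groups of peaks overlap, and in background the lowest control peak, at 8.79 tags, lies within the MTX range of 6.0 to 11.0. The annotation puts 1 MTX peak, from 85599896 to 85600093 with 40.8 tags over 10.0, in the promoter of Sp140, and no control peak there. The peaks from 85624895 to 85625618 in the control and from 85624918 to 85625204 in MTX were the shared position linked to Sp140.

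Sp100, the nuclear body gene, is listed as ENSMUSG00000026222 and had 1 control peak and 0 MTX peaks. The control peak, in an intron from 85651092 to 85651430, had 18 tags over 3.78, a 3.97-fold enrichment, and ranked 86th of 87 by pileup. The nearest MTX summit to the Sp100 start lay 13717 bp before it, in an intron of Sp140. No MTX peak at Sp100 was detectable at this depth and q-value cutoff. Of the 3 named genes, Sp110 and Sp140 thus carried control peaks as high in pileup as the rest of the cluster, and Sp100 lay at its lower edge. By fold enrichment the Sp100 peak ranked 20th of 87. In MTX the median pileup was 28.7 tags for Sp110 and 35.2 for Sp140, against 32.5 over the cluster.

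Other genes held most of the linked peaks. ENSMUSG00000091199 had 19 control peaks and 7 MTX peaks, all intronic, with median pileups of 32 and 33.4 tags. ENSMUSG00000052477 had 17 control and 13 MTX peaks with medians of 35 and 26.9 tags. ENSMUSG00000079455 had 6 control and 2 MTX peaks with medians of 37.5 and 34.8 tags, and ENSMUSG00000089844 had 5 and 4 with medians of 37 and 37.5 tags. These genes overlap, and a peak linked to several is counted in each. The deposited median pileup by gene was lower in MTX for ENSMUSG00000052477, ENSMUSG00000079455, Sp110 and Sp140 and higher for ENSMUSG00000091199 and ENSMUSG00000089844, and on fragments before scaling that of ENSMUSG00000079455 was 37.5 in both conditions.

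Control peaks of the promoter class were linked to ENSMUSG00000052477, ENSMUSG00000064281, ENSMUSG00000089844, ENSMUSG00000089937, ENSMUSG00000090103, ENSMUSG00000090186, ENSMUSG00000090246 and ENSMUSG00000096802, and MTX peaks of that class to ENSMUSG00000052477, ENSMUSG00000073628, ENSMUSG00000073631 and Sp140. Only ENSMUSG00000052477 was in both groups, through different peaks, from 85271132 to 85271387 in the control and from 85261880 to 85262265 in MTX. No share over the whole lists is given for this count, so it is a description only. The annotation linked 5 of the 25 shared peaks in each list, so most shared peaks could not place a gene in both groups. The further genes were ENSMUSG00000061852, with 3 MTX peaks and 0 control peaks, and 6 others with at most 2 peaks in either list.

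The RefSeq table for GRCm38.p6 gave a second view of the genes. The files name no genome build, so the table was checked against the peaks annotated as promoter peaks. Of these 51 peaks in the whole series, 42 lay within 3 kb of an end of a gene of the table. In the cluster's window the table had 37 genes, 17 protein coding and 10 pseudogenes, and 15 of the 37 held a summit. A gene of the table held 77 of the 87 control summits and 46 of the 53 MTX summits.

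Gm38510 held 24 control and 14 MTX summits, and Gm7592 held 21 and 13. By this table Sp140 held 17 and 12, with median pileups of 46 and 34.3 tags, and Sp110 held 14 and 10, with 45.5 and 32.9 tags. The spans of Sp110 and Sp140 overlap, and 11 control and 8 MTX summits lay in both. The Sp140 copies C130026I21Rik and A530032D15Rik held 13 and 8 and 6 and 3 summits, and the Sp100 copy Gm7609 held 1 and 0, as Sp100 itself did. The order of the named genes by peaks, Sp140, Sp110 and Sp100 here, was Sp110, Sp140 and Sp100 by the annotation above in the control list. The counts differ in gene model and in the peaks they include, since the annotation links 1 shared control peak to Sp140 and 1 to Sp110, where the RefSeq table places 7 in Sp140 and 4 in Sp110. In the MTX list Sp140 led by both counts.

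The near copies of Sp140 were laid side by side by distance from their start sites, as far as 30 kb downstream. The peak lists do not show how reads that match more than 1 copy were placed. Tags listed at 1 copy therefore cannot be told apart from reads of another, and this was not tested. Sp140 had 9 control and 6 MTX summits there, A530032D15Rik had 5 and 5, and C130026I21Rik had 4 and 3. A control summit of Sp140 had a control summit of A530032D15Rik at the same distance, within 250 bp, at 1 of 9 summits, and of C130026I21Rik also at 1 of 9. For MTX the counts were 0 of 6 and 0 of 6. Summits upstream of these starts took no part in this, although RefSeq genes reach 13.2 kb before the start used at Sp140, 12.3 kb at C130026I21Rik and 0.444 kb at A530032D15Rik. Those left out inside the genes were 8 control and 5 MTX summits at Sp140, 9 and 5 at C130026I21Rik, among them the longest run of shared peaks, and 1 and 0 at A530032D15Rik. Downstream of start sites that are nearly identical, the copies' listed summits therefore mostly lay at different distances. Only the start site windows were aligned, so whether the sequence further downstream keeps the same spacing in the copies was not tested.

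The matched control summits lay 21.5 kb downstream of the starts of Sp140 and A530032D15Rik, with 44 and 49 tags over 18.9 and 19.9, and 10.7 kb downstream of those of Sp140 and C130026I21Rik, with 35 and 39 tags over 8.79 and 17.0. The highest control pileup within 30 kb was 51 tags at Sp140, 54 at A530032D15Rik and 53 at C130026I21Rik, and the highest MTX pileup was 42.7, 43.6 and 43.6 tags, that of A530032D15Rik lying beyond the end of the gene. Over the summits inside each gene, the median pileup differed more, at 46, 36.5 and 42 tags in the control and 34.3, 26.9 and 36.6 tags in MTX, in the same order. No listed summit lay within 3 kb downstream of any of these 3 starts.

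**Figure D4:**
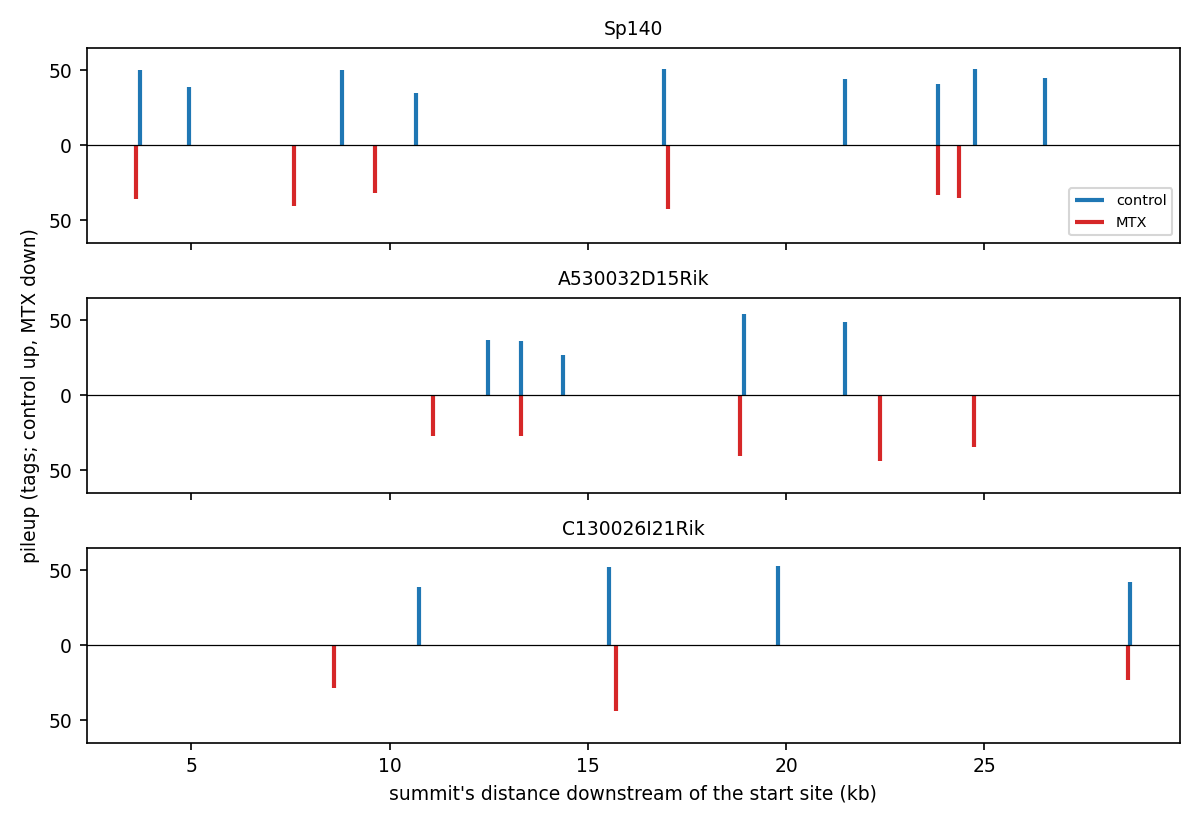
Pileup in tags of control summits (up) and MTX summits (down) against distance in kb downstream of the start site, for Sp140 and its near copies A530032D15Rik and C130026I21Rik; each bar is 1 peak. Control maxima are 51, 54 and 53 tags, and distances mostly differ. The sequence beyond the start site windows was not aligned.

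The printed start site windows were compared with the peaks around them. The A530032D15Rik window was the only one of the 7 that a listed peak overlapped. That control peak, from 85109740 to 85110045 with 33 tags over 11.4, had its summit 54 bp upstream of the start, and the nearest MTX peak was 10949 bp from the window. Of its near copies, C130026I21Rik had a control peak 316 bp from its window, with 31 tags over 11.4, and Sp140 had an MTX peak 360 bp from its window, with 40.8 tags over 10.0, both on the upstream side. Within 360 bp of its window, each of the near copies thus had a peak of 1 list only. This limit is the distance of the Sp140 peak itself and was set after the values were seen. A control peak lay 1034 bp from the Sp140 window, also on the upstream side.

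Both windows of Sp110 had peaks on the upstream side. The shared position before the upstream start, where the 13-base word is repeated, lay 107 bp from the window in the control list, with 50 tags over 16.1, and 93 bp in the MTX list, with 36.2 tags over 7.20. A control peak with 45 tags over 13.2 lay 167 bp from the window of the downstream start, where TTTCNNNTTTC occurs, and the nearest MTX peak lay 602 bp away on the downstream side. The Sp100 window was 1029 bp from the control peak in its intron, and the Gm7609 window was 15543 bp from the nearest control peak. Among the 7 windows, those of Sp110 were thus the only ones with listed peaks of both conditions within 1 kb. This rests on the cut at 1 kb, since the control peak of 45 tags lay 1034 bp from the Sp140 window.

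Of all 49997 genes of the RefSeq table, 0.264% had a control peak in the gene or within 3 kb and 0.246% had an MTX peak, so a short list of genes with no listed peak is near that background. Of 8 genes of H3K79 methylation and its reading (Dot1l, Mllt1, Mllt3, Mllt10, Aff1, Aff4, Rnf20 and Rnf40), 0 had a control or MTX peak in the gene or within 3 kb. The same held for 8 genes active in most cells (Actb, Gapdh, Eef1a1, Hsp90ab1, Rplp0, Tbp, Hprt and Ppia). It held as well for 8 genes that mark pluripotent cells (Pou5f1, Sox2, Nanog, Klf4, Zfp42, Esrrb, Tdgf1 and Dppa5a), so the peak lists give no check of the cell type. At the named genes of the cluster, where the choice of the window fixed that peaks are present, the same count gave 15 control and 10 MTX peaks at Sp110, 19 and 12 at Sp140, and 1 and 0 at Sp100. H3K79me2 outside listed peaks was not analysed here.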

How the data were processed

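H3K79me2 ChIP-seq peak lists of the control and MTX cells were analysed, each from 1 ChIP library and 1 input library. The authors mapped reads with Bowtie2 and called narrow peaks with MACS2 2.1.1.20160309 at a q-value cutoff of 0.05, with at most 1 tag per position and the larger library of each pair scaled to the smaller. The deposited pileup is a signal, the number of ChIP fragments over the summit after that scaling. The deposited fold enrichment is a ratio, the pileup plus 1 over the local input background plus 1. The deposited significance values are −log10 p-values and −log10 q-values.

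Counts and intervals were made in Python 3.11.15 (scipy 1.17.1, numpy 2.4.6, pandas 2.3.3) and plots with matplotlib 3.10.9. Peaks were shared when they overlapped by at least 1 bp, a step tested on simulated data. Window sequences were compared with Biopython 1.88 and BLAST+ 2.17.0. Gene names and windows came from RefSeq tables on GRCm38.p6, and symbols of genes without a pairing by the study were matched by position. With 1 library per condition no test was made; Wilson and exact Poisson intervals at 95% cover counting error only.

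Genes were named by rule: Sp100, Sp110 and Sp140, genes linked to at least 5 peaks of a list or to a promoter-class peak, and gene lists given in full. ENSMUSG00000061852, ENSMUSG00000089714, the near copies of start sites and genes counted in the RefSeq table alone were named after their values were seen. A further gene list is not reported here. Peaks named were the 5 highest of each list by pileup, the 3 highest by fold enrichment, and shared positions with a pileup among the 10 highest; peaks linked to Sp100, Sp110 and Sp140, peaks of the near copies or nearest to start sites, the edges, runs of peaks and the position near 85624420 were named after their values were seen. The members and lists were chosen with earlier results of these data known. Alternatives were stricter q-values, a minimum fold enrichment, merged peaks, other rules for sharing, other scalings, a narrower stretch and fewer annotation classes.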

Additional observations from a re-analysis of the deposited data

How the results depend on the processing

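With 1 ChIP library in each condition, no paired analysis was possible. Other thresholds and rules gave 50 values that could move, of which 32 stayed near the reported value (counts by a factor of at most 1.5), 17 moved and 1 changed direction. A further 6 could not move, being changes of unit by 1 constant or subsets of a count of 0. A q-value of 0.01 or less moved none of them. With a fold enrichment of at least 5, the cluster held 3 control and 13 MTX peaks, a ratio of 4.33, with 0 control and 0 MTX peaks shared, a median control pileup of 22 tags and median backgrounds of 2.84 (control) and 3.46 tags (MTX). Ratios at shared positions then gave no value, since no position was shared. The direction of the ratio of peaks, 0.609 over all peaks, was therefore the opposite under that minimum. The minimum leaves few peaks by its construction, and the cause of the change was not tested. In the longest stretch alone there were 51 control and 28 MTX peaks, 13 of each shared, fewer by its construction. Counting peaks within 1 kb as shared raised the shared control peaks from 25 to 46. With exon and promoter classes only, Sp110 had 2 control and 0 MTX peaks, Sp140 had 0 and 1, and Sp100 had 0 control peaks. Among alternatives chosen after seeing the data, 41 control and 29 MTX peaks had a q-value of 1e-05 or less, a ratio of 0.707. The lists hold no value outside peaks, and with 1 library per condition variation between cultures cannot be told apart from the treatment.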
